A study of Bos taurus with 24 samples.

Results

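The genes described here are 9 named interferon-stimulated genes, MX1, MX2, RSAD2, ISG15, IFI6, IFI44, IFIH1, IRF7 and IRF9, which were taken by their symbols in the array platform's annotation. That annotation paired 8 of the 9 with a feature, each with a single feature, and all 8 passed the filter on dim features. They are 8 of 14198 tested genes and of 18444 named genes. IFI44 was not listed in the annotation used here and has no value below.

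Type I interferons are secreted when cells sense viral nucleic acid, and they act through a shared receptor, JAK kinases and a transcription complex that contains IRF9. That complex induces a large set of antiviral genes, among them the dynamin-like GTPases MX1 and MX2. In muscle, fibres, vessel cells and resident leukocytes can all respond, so a level in whole tissue is a sum over cell types. In such bulk tissue fewer cells of a type and less RNA per cell cannot be told apart.

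The tissue was gluteus medius muscle, taken by needle from cows (Bos taurus). All 12 cows had first received a diet set at 120 kcal ME (metabolizable energy) for each kg of metabolic body weight over 112 days, called restricted here, and were then fed without limit for another 112 days. The biopsy described first in the protocol fell on day 105 of the restricted period and the later one on day 49 of free feeding. Samples numbered 1 and 2 in the titles were read as these biopsies in that order. The 6 high gain cows and the 6 low gain cows were the extremes of 121 animals for weight gain under free feeding, so each of the 4 groups (gain class by biopsy) held 6 arrays. No untreated group and no change of order was in the design: biopsy number, feeding, calendar time, animal age and processing set cannot be told apart. Each cow is a separate animal, and its own biopsies were paired in the tests between biopsies.

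Values were deposited on a log scale, read as log2. Array medians ran from 7.68 to 7.88 at biopsy 1 and from 7.79 to 7.85 at biopsy 2, but the top of the scale was 19.81 at biopsy 1 and 19.93 at biopsy 2, and whether the biopsies were normalized as separate sets is not stated. No interferon-stimulated gene lay at the top of the scale on any array. The mean of 12 skeletal muscle markers was 14.59 on the biopsy 1 array of low gain cow 4 and 18.66 to 19.52 on all other arrays. That array read 14.51 for the muscle actin ACTA1 and 17.98 for the fat hormone ADIPOQ, and the biopsy 2 array of high gain cow 4 read 18.17 for ADIPOQ. The value without these cows is given for many of the calls and correlations below. Those printed without such a value may also rest on them.

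The interferon-stimulated genes did not move as a block between biopsies. MX1, RSAD2 and MX2 fell, IRF9 and IRF7 rose, and IFI6, IFIH1 and ISG15 did not pass the test. Against this, limma with Benjamini-Hochberg adjustment over all 14198 genes called 38.1% of tested genes at an adjusted p under 0.05, with 20.8% up and 17.4% down. The count of 5 of 8, 2 up and 3 down, is to be read against those shares. The median change of the 8 genes was 0.06 on the log2 scale against 0.02 for all tested genes, and their median absolute change was 0.31 against 0.26.

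**Figure D1:**
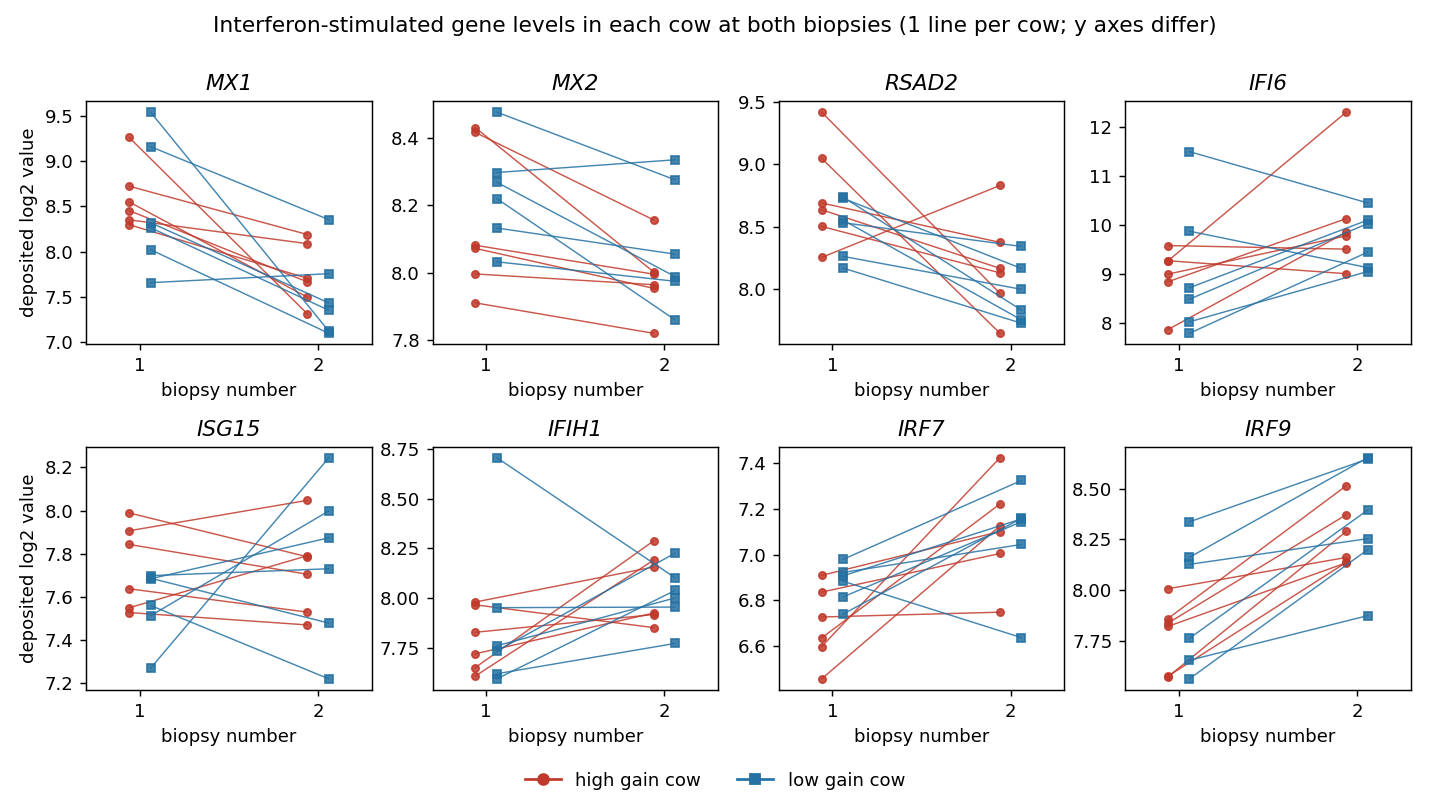
Deposited log2 value (y axis, scale differs by panel) of each of the 8 measured genes at biopsy 1 and biopsy 2 (x axis), with 1 line per cow, red circles for 6 high gain cows and blue squares for 6 low gain cows. MX1, MX2 and RSAD2 each fell in 11 of 12 cows and IRF9 rose in 12 of 12, while IFI6, ISG15 and IFIH1 moved in both directions.

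MX1 traps viral nucleoproteins and is a standard readout of interferon exposure in cattle blood. In high gain cows its deposited log2 level ran from 8.30 to 9.26 with a median of 8.50 at biopsy 1, and from 7.31 to 8.19 with a median of 7.68 at biopsy 2. These groups did not overlap. What share of all tested genes separates in this way, here or below, is not given. The low gain cows ran from 7.66 to 9.54 with a median of 8.29 at biopsy 1, and from 7.10 to 8.35 with a median of 7.39 at biopsy 2, so the low gain groups overlapped. Over the 12 cows MX1 fell by 1.02 ± 0.18 (SE) on the log2 scale, which is 2.03-fold (limma adjusted p = 0.000853, n = 12 pairs). It was lower at biopsy 2 in 11 of 12 cows, and after quantile normalization 10 of the 12 biopsy 1 values lay above every biopsy 2 value. The exception was low gain cow 2, at 7.66 and 7.76. Only 3.11% of tested genes had a larger absolute change. The lowest log2 changes were -2.49 in low gain cow 4, whose biopsy 1 array was the one low in muscle markers, and -2.04 in high gain cow 6. Without low gain cow 4 the change was -0.88.

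RSAD2 encodes viperin, an enzyme that makes a chain-terminating nucleotide used against viral polymerases. Its level in high gain cows was 8.25 to 9.42 (median 8.66) at biopsy 1 and 7.65 to 8.83 (median 8.15) at biopsy 2. In low gain cows it was 8.17 to 8.74 (median 8.54) and then 7.73 to 8.34 (median 7.91), so the biopsies overlapped in both classes. RSAD2 fell by 0.65 ± 0.15 on the log2 scale over 12 cows (limma adjusted p = 0.00376) and was lower in 11 of 12. High gain cow 4 was the exception, with a rise of 0.43, and its biopsy 2 array was the one rich in ADIPOQ. High gain cows 2 and 6 fell most, with log2 changes of -1.53 and -1.48.

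MX2, the other dynamin-like GTPase of this pair, is the protein-coding neighbour of MX1 in the RefSeq gene order of cattle (ARS-UCD2.0). Its level was 7.91 to 8.43 (median 8.08) at biopsy 1 and 7.82 to 8.16 (median 7.98) at biopsy 2 in high gain cows. Among low gain cows it was 8.03 to 8.48 (median 8.24) and 7.86 to 8.34 (median 8.02). Both classes overlapped between biopsies, yet MX2 was lower in 11 of 12 cows. It fell by 0.25 ± 0.065 (limma adjusted p = 0.00816), a change exceeded in size by 50.9% of tested genes. On the values as deposited, without further normalization, the change was -0.16 and the call was lost (adjusted p = 0.0526).

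IRF9 is the DNA-binding subunit of the transcription complex that interferon activates. In high gain cows its level was 7.57 to 8.01 (median 7.83) at biopsy 1 and 8.13 to 8.51 (median 8.22) at biopsy 2, with no overlap. As for MX1, the share of all tested genes without overlap is not given. The low gain cows had 7.56 to 8.34 (median 7.94) and then 7.87 to 8.65 (median 8.32), with overlap. IRF9 rose in 12 of 12 cows, by 0.35 ± 0.072 on the log2 scale (limma adjusted p = 0.002). It thus moved opposite to MX1, a gene its complex is known to induce.

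IRF7 is the transcription factor that amplifies type I interferon production. Its level was 6.46 to 6.91 (median 6.68) and then 6.75 to 7.42 (median 7.11) in high gain cows. In low gain cows it was 6.74 to 6.98 (median 6.90) and then 6.64 to 7.32 (median 7.15), and both classes overlapped. Its mean over all arrays, 6.94, lay near the filter limit of 6.76, and the high gain median at biopsy 1 lay under that limit. IRF7 rose by 0.26 ± 0.084 over 12 cows (limma adjusted p = 0.0263) and was higher in 10 of 12. The call was lost when high gain cow 1, 2 or 6 or low gain cow 2, 3 or 6 was left out, with adjusted p from 0.0515 to 0.0595.

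IFI6, a small hydrophobic membrane protein that restricts several RNA viruses in human cells, had the widest range of change among the 8 genes, from -1.46 to 2.88. Its level was 7.86 to 9.57 (median 9.13) at biopsy 1 and 9.0 to 12.30 (median 9.81) at biopsy 2 in high gain cows. Among low gain cows it was 7.78 to 11.49 (median 8.60) and 9.05 to 10.44 (median 9.73). The change over 12 cows was 0.74 ± 0.32, which did not pass (limma adjusted p = 0.08), with 8 cows higher and 4 lower. The extremes were low gain cow 4 at -1.46 and high gain cow 4 at 2.88, the cows with an array apart. Without both of them the change was 0.74 and passed (adjusted p = 0.0281), and without low gain cow 4 alone it was 0.93 (adjusted p = 0.0205).

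ISG15, an interferon-induced ubiquitin-like modifier of other proteins, was 7.53 to 7.99 (median 7.74) and 7.47 to 8.05 (median 7.74) in high gain cows. The low gain cows had 7.27 to 7.698 (median 7.62) and 7.22 to 8.25 (median 7.80). The change of 0.010 ± 0.10 did not pass (limma adjusted p = 0.947, 95% interval -0.22 to 0.24), and it was positive in 5 cows and negative in 7. Its rise of 1.01 in low gain cow 4 was the largest, and 97.8% of tested genes had a larger absolute change than ISG15.

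IFIH1 encodes MDA5, the cytoplasmic sensor of long double-stranded RNA. Its level was 7.61 to 7.98 (median 7.78) and 7.85 to 8.29 (median 8.04) in high gain cows. In low gain cows it was 7.60 to 8.71 (median 7.75) and 7.77 to 8.23 (median 8.02), where the 8.71 was the biopsy 1 array of low gain cow 4. The change of 0.11 ± 0.094 did not pass (limma adjusted p = 0.391, 95% interval -0.095 to 0.31).

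The change was also estimated within each gain class. In high gain cows, where limma called 20.3% of tested genes with 11.5% up and 8.73% down, 3 of 8 interferon-stimulated genes were called. These were MX1 at -0.97 ± 0.26 (adjusted p = 0.0191), RSAD2 at -0.68 ± 0.21 (adjusted p = 0.0346) and IRF9 at 0.38 ± 0.10 (adjusted p = 0.0202). In low gain cows, with 20.3% called, 10.8% up and 9.46% down, the same 3 genes were called. There MX1 changed by -1.07 ± 0.26 (adjusted p = 0.0116), RSAD2 by -0.62 ± 0.21 (adjusted p = 0.0498) and IRF9 by 0.33 ± 0.10 (adjusted p = 0.0361). MX2 changed by -0.27 and -0.24 in the 2 classes and passed in neither (adjusted p = 0.0558 and 0.0847). Without the cows with an array apart, MX2 passed in high gain cows, at -0.28 (limma adjusted p = 0.0483).

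Within a class these calls often rested on single cows. The call of MX1 in high gain cows was lost without high gain cow 3 or 6 (adjusted p = 0.0522 and 0.0623), and that of RSAD2 without high gain cow 1, 2, 3, 5 or 6 (up to 0.116). The low gain call of RSAD2 was lost without any of the 6 low gain cows, or without high gain cow 1, 3 or 5, which share the estimate of spread (0.0613 to 0.116). IRF9 lost its call without high gain cow 1, 2, 4 or 5 in the high gain class (0.0501 to 0.0653), and without low gain cow 2, 3, 4 or 6 in the low gain class (0.0594 to 0.0975). On the values as deposited RSAD2 passed in neither class (adjusted p = 0.0694 in high gain and 0.0942 in low gain cows), and IRF9 was lost in low gain cows without the cows with an array apart (0.0573). MX1, RSAD2 and IRF9 kept their direction in these fits.

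**Figure D2:**
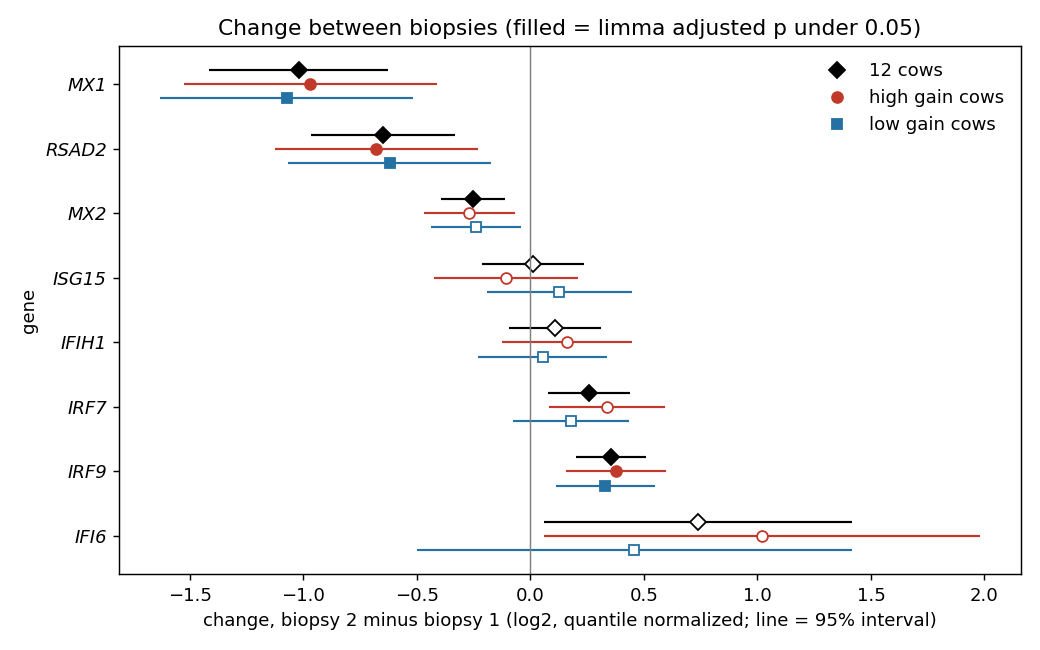
Change between biopsies (x axis, log2, biopsy 2 minus biopsy 1) of each gene (y axis), as limma estimates with 95% intervals for 12 cows (black diamonds), 6 high gain cows (red circles) and 6 low gain cows (blue squares). Filled marks passed an adjusted p of 0.05. MX1, RSAD2 and IRF9 are filled in every row, and the intervals of the 2 classes overlap for each gene.

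The difference of the change between classes was tested directly. Limma called 0 of 14198 genes (0%), with 512 genes at an unadjusted p under 0.05, and none of these was an interferon-stimulated gene. For MX1 the difference, high minus low gain, was 0.10 with a 95% interval of -0.68 to 0.89 (-0.30 without the cows with an array apart), and for RSAD2 it was -0.06 (-0.69 to 0.57). The interval for IRF9 was -0.26 to 0.36 and that for IFI6 was -0.80 to 1.92, around 0.56 (-0.19 without those cows).

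Gain classes were also compared within each biopsy, which asks whether the cows that gained more differed in interferon-stimulated genes at that time. Limma called 0 genes (0%) at biopsy 1, with 716 at an unadjusted p under 0.05, and 0 genes (0%) at biopsy 2, with 334. No interferon-stimulated gene was among either. At biopsy 1 the difference of MX1, high minus low gain, was 0.11 (95% interval -0.52 to 0.74), and that of IRF7 was -0.18 (-0.37 to 0.011). At biopsy 2 the difference of MX1 was 0.22 (-0.24 to 0.69).

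Over the mean of both biopsies 0 genes were called (0%), with 526 at an unadjusted p under 0.05, of which RSAD2 was the only interferon-stimulated gene. Its level was higher in high gain cows by 0.24 ± 0.10 (95% interval 0.020 to 0.46, unadjusted p = 0.0343), but the limma adjusted p was 0.999. RSAD2 medians were 8.66 against 8.54 at biopsy 1 and 8.15 against 7.91 at biopsy 2, high gain first, with overlapping groups at both.

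Whether an animal that was high at biopsy 1 was also high at biopsy 2 was tested with a moderated F-test over cows within gain class. Limma called 2 of 14198 genes (0.0141%), with 804 at an unadjusted p under 0.05. These were BOLA, a class I histocompatibility gene, and GSTM3, a glutathione transferase, and neither is an interferon-stimulated gene of the 9. IRF9 came nearest among the 8 (F = 2.66, unadjusted p = 0.0484, adjusted p = 0.843), followed by IFI6 (F = 2.18, unadjusted p = 0.0911) and MX2 (F = 2.06, unadjusted p = 0.108).

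The level of MX2 at biopsy 1 correlated with its level at biopsy 2 over 12 cows, with the gain class mean subtracted (Pearson r = 0.64, permutation p = 0.016; Spearman rho = 0.66, permutation p = 0.0171). IRF9 gave r = 0.62 (permutation p = 0.0836) and rho = 0.67 (permutation p = 0.0455). Leaving out the 2 cows farthest from the median lowered these to r = 0.44 for MX2 and 0.25 for IRF9. For MX1, r was -0.04 over 12 cows and 0.57 without the 2 farthest cows, so its value rested on them. RSAD2 gave -0.48 and the median over the 8 genes was 0.005, beside 0.05 over all tested genes. Without the 2 cows with an array apart, r was 0.60 for MX2, 0.48 for IRF9, 0.33 for MX1 and -0.16 for RSAD2. These p-values, 1 for each of 8 genes and each coefficient, were not adjusted, and the F-test above carries the adjustment over all genes.

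How far the genes moved together across animals was described by pairs. Over the 28 pairs of genes, with the gain class mean subtracted, the median Pearson correlation over 12 cows was 0.12 at biopsy 1 (range -0.66 to 0.80, 17 pairs positive) and 0.10 at biopsy 2 (range -0.59 to 0.65, 15 positive). With low gain cow 4 and high gain cow 4 both omitted, the median over the 28 pairs was 0.27 at biopsy 1 and 0.12 at biopsy 2. The biopsy 1 median thus depended in part on these cows. All pairs of tested genes over 12 cows had medians of 0.003 at both biopsies, with quartiles of -0.31 to 0.31 at biopsy 1 and -0.27 to 0.27 at biopsy 2. For all pairs of tested genes no value with that omission is given. Of the 28 pairs, 11 were positive at both biopsies, 7 were negative at both and 10 changed sign. Genes on 1 array share its RNA and its normalization, so these correlations are a description.

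MX1 and IRF9 had the highest correlation of the 28 pairs at biopsy 1, and IFI6 and IRF9 at biopsy 2. For MX1 and IRF9 at biopsy 1 r was 0.80 (permutation p = 0.00543) and rho 0.76 (permutation p = 0.0157), and at biopsy 2 r was 0.53 (permutation p = 0.126) and rho 0.61 (permutation p = 0.0484). Without the 2 cows with an array apart, r was 0.75 and 0.79. So cows with more MX1 tended to have more IRF9 within a biopsy, although between biopsies MX1 fell and IRF9 rose. IFI6 and IRF9 were the other pair above 0.5 at both biopsies, at 0.62 (permutation p = 0.0795) and 0.65 (permutation p = 0.00372), with 0.35 and 0.58 without those cows.

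The correlation of ISG15 with IFI6 was -0.66 at biopsy 1 (permutation p = 0.0148) and -0.25 at biopsy 2, and that with MX1 was -0.12 and then -0.59 (permutation p = 0.0756). Without the cows with an array apart ISG15 and IFI6 had -0.39 and -0.47, and ISG15 and MX1 had 0.34 and then -0.46, so the latter changed sign at biopsy 1. MX1 and IFIH1 had r = 0.76 at biopsy 1 (permutation p = 0.00965) but 0.16 at biopsy 2, with 0.53 and 0.35 without those cows. MX1 and MX2, the neighbouring genes, had r = 0.12 at both biopsies, but 0.49 and 0.06 without those cows. The p-values of pairs are unadjusted, from 28 pairs at each biopsy.

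**Figure D3:**
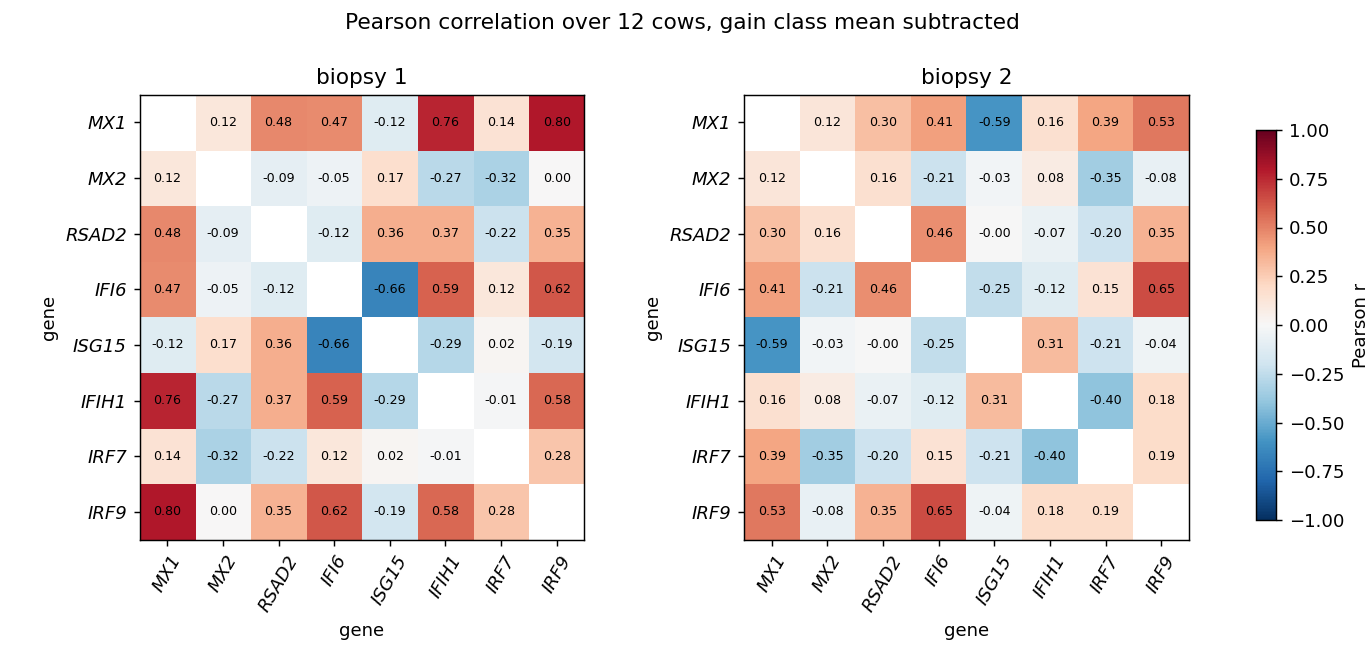
Pearson correlation (colour and printed value) between each pair of the 8 measured genes (both axes) over 12 cows, at biopsy 1 and biopsy 2, with the gain class mean subtracted. MX1 with IRF9 and IFI6 with IRF9 exceed 0.5 in both panels, and ISG15 with IFI6 is below 0 in both.

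Changes between biopsies were paired in the same way. Over 28 pairs the changes of 2 genes correlated over cows with a median of 0.17 (range -0.67 to 0.73, 17 positive). The change of MX1 went with those of IFIH1 (r = 0.73, permutation p = 0.0223), IRF9 (0.62, permutation p = 0.0353) and IFI6 (0.61, permutation p = 0.0428), and against that of ISG15 (-0.67, permutation p = 0.0385). Without the 2 cows with an array apart these were 0.54, 0.71, 0.27 and -0.31, and without the 2 cows farthest from the median MX1 and IFIH1 had 0.10. The change of MX2 went against that of IRF7 (r = -0.63, permutation p = 0.0357; -0.63 without those cows).

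Set against the scaled mean of the other 7 over 24 arrays, as deviations from group means, MX1 gave r = 0.71 and IRF9 0.73. IFIH1, IFI6 and RSAD2 gave 0.38, 0.36 and 0.31, while IRF7, MX2 and ISG15 gave -0.06, -0.11 and -0.21. The tested genes whose deviations were most like the scaled mean of the 8 were ZNF624 (r = 0.82), a gene known only by a clone name (0.80), BOLA-DRB3 (0.77), SPRED2 (0.76), TMEM219 (0.76), B2M (0.74), SPI1 (0.74), NRBP2 (0.73), CDH5 (0.73) and CD52 (0.73). Among them BOLA-DRB3 and B2M encode parts of class II and class I histocompatibility molecules, SPI1 is a myeloid transcription factor, CD52 a leukocyte surface protein and CDH5 an endothelial cadherin.

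MX1 served as a reference for a fit of every other tested gene over cows, with gain class as a covariate and each cow the mean of its biopsies. Limma called 0 of 14197 genes (0%), with 285 at an unadjusted p under 0.05. IRF9 was the interferon-stimulated gene among these, with a slope of 0.51 ± 0.14 log2 units per log2 unit of MX1 (unadjusted p = 0.00367, adjusted p = 1). The slope of IRF9 stayed between 0.44 and 0.70 when each cow was left out in turn. The 10 genes with the smallest p were RIMS4, LRRC46, CDCP2, SPI1, RIPOR2, IL15, RNF207, RERG, MACC1 and CCDC110, and none passed. The smallest p belonged to RIMS4 and LRRC46, with slopes of -0.66 ± 0.12 and -0.71 ± 0.14, and slopes of both signs were among the 10. IL15, a cytokine that interferon induces in myeloid cells, had a slope of 0.93 ± 0.24, and SPI1 one of 0.66 ± 0.16.

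Levels of other cell types' markers were set beside the interferon-stimulated genes over cows, for 8 genes, 8 marker lists and 2 biopsies, which makes 128 relations. A single relation passed the adjustment by Pearson correlation. RSAD2 at biopsy 2 rose with the mean of 6 plasmacytoid dendritic cell markers, the cell type known for its output of type I interferon (r = 0.91, permutation p = 0.00018, adjusted p = 0.023). Spearman's rho was 0.89 (permutation p = 0.00049, adjusted p = 0.0627), and r was 0.82 without the 2 farthest cows and 0.81 without the cows with an array apart. At biopsy 1 the same relation had r = 0.04 (permutation p = 0.895) and rho = -0.01 (permutation p = 0.974). Other lists also went with RSAD2 at biopsy 2, without passing the adjustment. Endothelial markers had r = 0.72 (permutation p = 0.031), macrophage and leukocyte markers 0.66 (0.0304) and fibroblast markers 0.66 (0.044). Without the cows with an array apart these were 0.32, 0.48 and 0.28.

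Of the 7 markers in the plasmacytoid dendritic cell list CLEC4C had no feature in the annotation used here. TLR9 and BCL11A lay under the filter limit of 6.76. The biopsy 2 correlations of RSAD2 with single markers were 0.73 for TCF4, 0.62 for TLR7, 0.55 for IRF8, 0.24 for SPIB, 0.07 for TLR9 and -0.31 for BCL11A. TCF4 is also expressed in many other cell types. The mean of the list ran from 7.37 to 7.68 and 7.45 to 8.08 at biopsy 1 (high and low gain) and from 7.24 to 7.60 and 7.19 to 7.40 at biopsy 2. Of the 4 markers tested, TLR7 and SPIB fell, with changes of -0.88 and -0.36 (limma adjusted p = 1.08e-05 and 0.00801). The biopsy 2 mean of TLR7, 6.59, lay under the filter limit. SPIB averaged 6.87 over all arrays, near that limit, so its fall was also measured close to the floor. TCF4 at -0.41 and IRF8 at 0.10 did not pass (adjusted p = 0.25 and 0.404), and the part of such cells in the change of RSAD2 was not tested.

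IFI6 and IFIH1 were set beside endothelial markers. On the biopsy 1 array of low gain cow 4, endothelial markers averaged 11.93 against 9.06 to 10.09 on all other biopsy 1 arrays. IFI6 and IFIH1 had their low gain maxima of biopsy 1 there, as did MX1 at 9.54, RSAD2 at 8.74 and IRF9 at 8.34 on deposited values. MX2, ISG15 and IRF7 did not. At biopsy 1 the correlation with endothelial markers was 0.89 for IFIH1 (permutation p = 0.028; rho = 0.66, permutation p = 0.0342) and 0.82 for IFI6 (permutation p = 0.0272; rho = 0.60, permutation p = 0.0553). Both had an adjusted p of 0.23, and without the 2 cows with an array apart r was 0.32 for IFIH1 and 0.40 for IFI6. The endothelial list was not alone in this at biopsy 1. IFIH1 had r = 0.84 with macrophage and leukocyte markers (permutation p = 0.0201), and 0.36 without those cows. IFI6 had r = 0.82 with plasmacytoid dendritic cell markers (permutation p = 0.0117), and 0.49 without those cows. Fibroblast, adipocyte, and macrophage and leukocyte markers gave r = 0.75, 0.60 and 0.71 with IFI6. These were 0.47, 0.06 and 0.26 without those cows. Fibroblast, adipocyte and plasmacytoid dendritic cell markers gave r = 0.66, 0.71 and 0.73 with IFIH1. These were 0.08, 0.24 and 0.11 without those cows. With lymphocyte and NK cell markers r was 0.42 for IFIH1 and -0.06 for IFI6. With red blood cell markers r was 0.26 for IFIH1 and -0.14 for IFI6. At biopsy 2, where high gain cow 4 had the highest endothelial mean at 10.70, IFI6 again correlated (r = 0.80, permutation p = 0.0471; rho = 0.60, permutation p = 0.045; adjusted p = 0.251), with 0.43 without those cows. For IFIH1 the biopsy 2 Pearson r was -0.16 (permutation p = 0.764; rho = 0, permutation p = 1), and 0.25 without those cows. Several muscle markers, such as ACTA1 and TTN, lay at or near the top of the scale on most arrays, so their correlations with the 8 genes are not given.

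**Figure D4:**
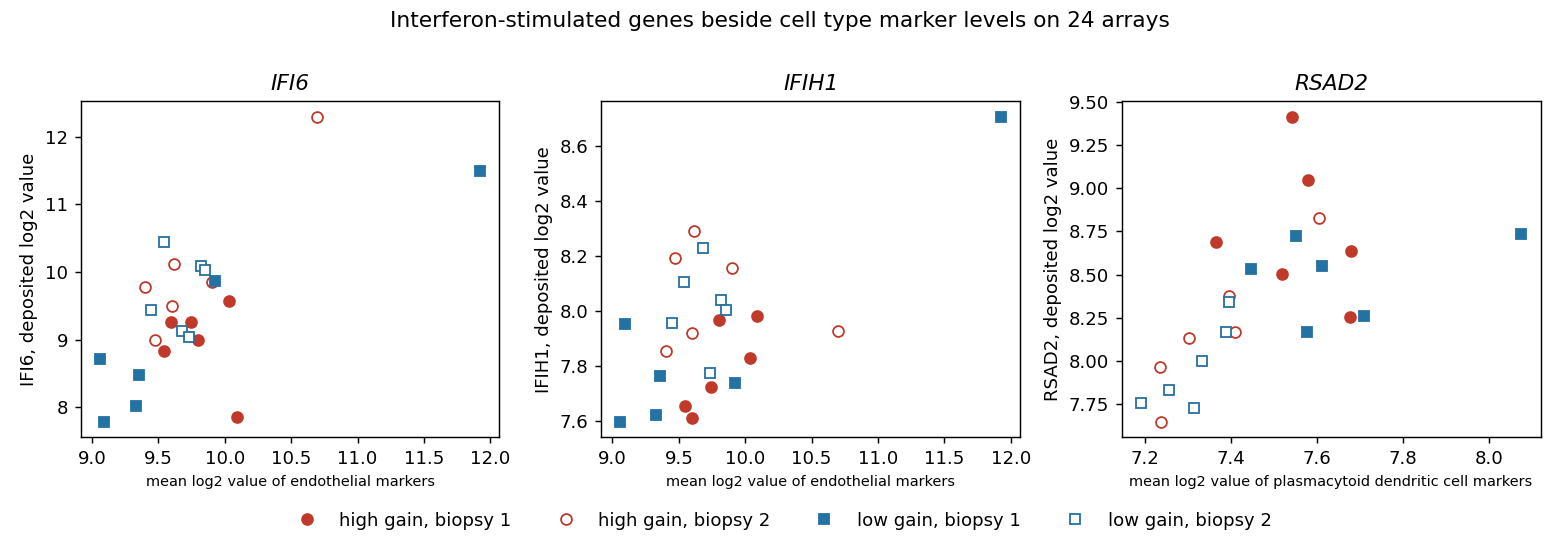
Deposited log2 value of IFI6, IFIH1 and RSAD2 (y axes) against the mean log2 value of endothelial or plasmacytoid dendritic cell markers (x axes) on 24 arrays, with colour for gain class and filled marks for biopsy 1. For IFI6 and IFIH1 the array of low gain cow 4 lies far to the right at 11.93, and the open marks of RSAD2 rise with the marker mean from 7.19 to 7.60.

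MX1 was also set beside endothelial markers. It correlated with endothelial markers at both biopsies, at 0.68 (permutation p = 0.0415; rho = 0.64, permutation p = 0.0401) and 0.60 (permutation p = 0.00738; rho = 0.71, permutation p = 0.0123), with adjusted p of 0.251 and 0.197. Without the cows with an array apart r was 0.27 and 0.74. With macrophage and leukocyte markers MX1 had r = 0.72 at biopsy 1 (permutation p = 0.0293; rho = 0.70, permutation p = 0.0242; adjusted p = 0.23) and 0.16 at biopsy 2 (permutation p = 0.621; rho = 0.33, permutation p = 0.321), with 0.38 and 0.03 without those cows. With lymphocyte and NK cell markers MX1 had r = 0.62 at biopsy 1 (permutation p = 0.0207, adjusted p = 0.23). At biopsy 2 r was -0.11. Without those cows these values were 0.61 and -0.20. IRF9 had r = 0.64 and 0.54 with endothelial markers (permutation p = 0.0354 and 0.00771), neither passing the adjustment. Without those cows r was 0.45 and 0.79. IRF9 and macrophage and leukocyte markers had 0.74 and 0.55, and 0.76 and 0.45 without those cows. Between biopsies 1 of 10 endothelial markers rose and 1 fell, beside 38.1% called over all genes, with a median change of -0.22. Without those cows 2 rose and 2 fell, with a median of -0.08. The list of 15 markers of macrophages and other leukocytes had 4 higher and 5 lower, beside 20.8% and 17.4% of all tested genes. C1QA at 1.04, C1QC at 0.44, CD14 at 0.35 and CSF1R at 0.34 rose, and PTPRC at -0.92, CD53 at -0.90, LYZ at -0.75, CD163 at -0.37 and AIF1 at -0.35 fell. The part of any of these cell types in the fall of MX1 or the rise of IRF9 was not tested.

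The rest of the interferon pathway was described by 7 lists, as counts out of the members that passed the filter, to be read against the 20.8% up and 17.4% down over all tested genes. For the interferon-lambda receptor both chains rose, IFNLR1 by 0.71 ± 0.098 and IL10RB by 0.40 ± 0.078, each in 12 of 12 cows (limma adjusted p = 0.000134 and 0.00154). IFNGR1, a chain of the interferon-gamma receptor, fell by 0.69 ± 0.25 (adjusted p = 0.0413). The chains of the type I receptor, IFNAR1 and IFNAR2, had changes of -0.53 and -0.37 that did not pass (adjusted p = 0.0957 and 0.153). In all 2 of 6 tested ligands and receptors rose and 1 fell, and the interferon genes IFNG, IFNK, IFNB1 and IFNL3 lay under the filter limit.

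Of 11 genes of interferon signalling 1 rose and 1 fell. IRF1, a factor that interferon-gamma induces, changed by 0.36 ± 0.087 (limma adjusted p = 0.00531), and IRF5, which acts below the Toll-like receptors, by -0.26 ± 0.084 (adjusted p = 0.0278). STAT2, the partner of IRF9, had a change of 0.17 ± 0.10 that did not pass (adjusted p = 0.207). Thus IRF9 and IRF7 rose while the median of the signalling list was 0.13.

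Of 10 sensors of nucleic acid 4 fell and 1 rose, beside 17.4% and 20.8% of all tested genes. TLR7, the endosomal sensor of single-stranded RNA, fell by 0.88 ± 0.084 in 12 of 12 cows (limma adjusted p = 1.08e-05). Its mean was 7.47 at biopsy 1 and 6.59 at biopsy 2, the latter under the filter limit of 6.76. STING1, the adaptor for cytoplasmic DNA, fell by 0.68 ± 0.14, also in 12 of 12 cows (adjusted p = 0.00246). EIF2AK2, the kinase PKR, fell by 0.52 (adjusted p = 0.0143) and ZBP1, a sensor of Z-form nucleic acid, by 0.31 (adjusted p = 0.0252). MAVS, the mitochondrial adaptor below MDA5, rose by 0.46 ± 0.10 (adjusted p = 0.00407), whereas IFIH1, RIGI and DHX58, the cytoplasmic RNA sensors, had changes of 0.11, 0.06 and 0.04 that did not pass.

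Most other antiviral effectors did not pass. Of 21 tested, 19 were not called, beside 38.1% called over all genes. LGALS3BP, a secreted galectin-binding glycoprotein, rose by 1.59 ± 0.43 (limma adjusted p = 0.0102). Its mean was 6.71 at biopsy 1, under the filter limit of 6.76, and 8.29 at biopsy 2, so it passed the filter through biopsy 2. PARP9, an ADP-ribosylation factor of the interferon response, fell by 0.66 ± 0.070 in 12 of 12 cows (adjusted p = 2.28e-05). CMPK2, the nucleotide kinase that lies beside RSAD2 in many mammals, had a change of -0.16 ± 0.089 (adjusted p = 0.177), IFIT3 one of -0.20 ± 0.083 (adjusted p = 0.0776) and IFI27 one of 0.08 (adjusted p = 0.446). These 3 were chosen for naming after their values were seen.

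In the ISG15 conjugation list 1 of 6 rose and 2 fell. UBA7, the activating enzyme of ISG15, rose by 0.57 ± 0.074 in 12 of 12 cows (limma adjusted p = 8.82e-05). HERC5, the ligase that attaches ISG15 in human cells, fell by 0.29 ± 0.10 (adjusted p = 0.0387) and TRIM38, a regulator of innate signalling, by 0.48 ± 0.098 (adjusted p = 0.00193). ISG15 itself did not pass, as given above.

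Of 11 genes of class I antigen presentation 4 rose and 0 fell. That is 36.4% called, near the 38.1% over all genes. The 4 were the proteasome activator subunit PSME1 at 0.86 ± 0.15 (limma adjusted p = 0.000596), the immunoproteasome subunit PSMB10 at 0.40 (adjusted p = 0.00772), the peptide transporter TAP1 at 0.40 (adjusted p = 0.0211) and the loading chaperone TAPBP at 0.55 (adjusted p = 0.0107). Of 8 genes known for induction by interferon-gamma 2 rose and 1 fell: WARS1, a tRNA synthetase, by 0.58 (adjusted p = 0.00518), the chemokine CXCL11 by 0.41 (adjusted p = 0.0125), and the class II transactivator CIITA by -0.30 (adjusted p = 0.0246). Leaving out low gain cow 4 and high gain cow 4 made the counts, up and then down, 2 and 2 for ligands and receptors, 2 and 1 for effectors, 3 and 1 for class I presentation and 3 and 1 for the interferon-gamma list. The other 3 lists kept their counts, and MX1, MX2, RSAD2, IRF7 and IRF9 were joined by IFI6.

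**Figure D5:**
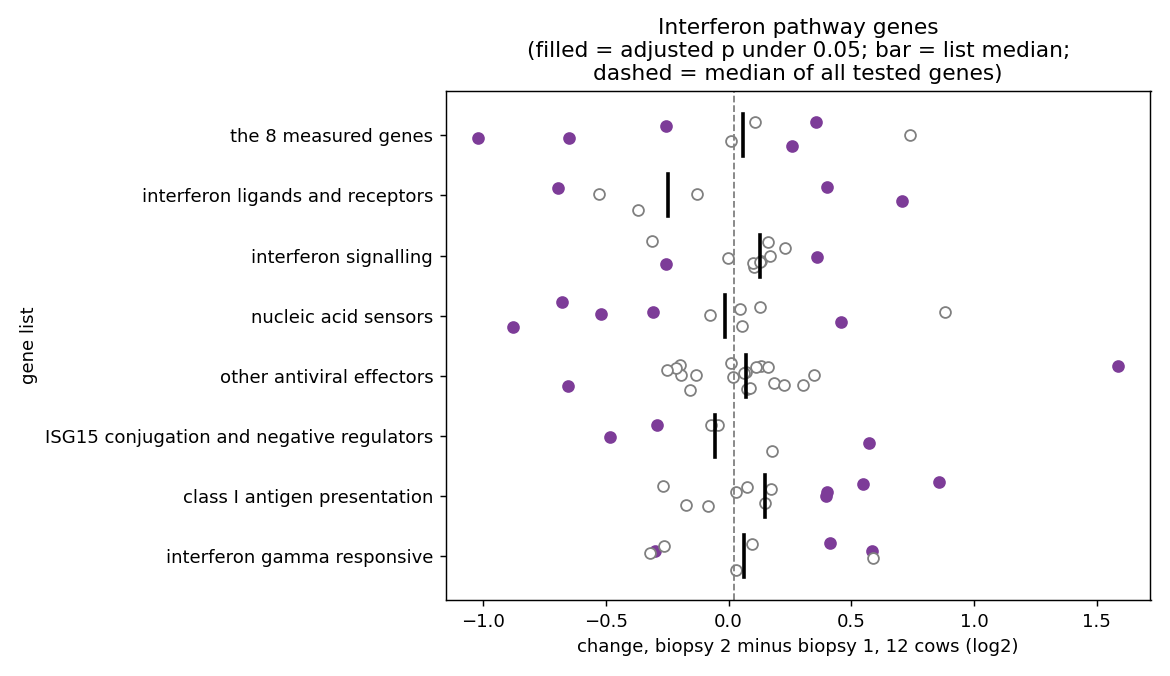
Change between biopsies over 12 cows (x axis, log2) of each tested gene of the interferon pathway lists (y axis), with filled points for an adjusted p under 0.05, a bar for the median of each list and a dashed line for the median of all tested genes at 0.02. MX1 lies at -1.02 among the 8 measured genes, and list medians run from -0.25 for ligands and receptors to 0.15 for class I presentation.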

How the data were processed

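Muscle RNA of 12 cows at 2 biopsies was measured on 24 Affymetrix arrays. The authors deposited 1 table of normalized values, taken to be log2 because of the range they span (no base is given); the submitters' processing notes name Transcriptome Analysis Console and Affymetrix Expression Console, with versions and normalization not given in the sources used here. Per the labels' protocols, RNA was extracted with TriPure Reagent and labelled as biotinylated cRNA.

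Of 26773 features 18790 were paired with 1 gene, 385 with several and 7598 with no gene; a lookup by Entrez number matched 18003 in RefSeq's table, where 0 symbols differed. The brightest feature of each gene was kept (320 genes had more than 1), and genes whose mean over arrays lay below 6.76, the features' 25th percentile, were left out. Tests used limma 3.58.1 in R 4.3.3 with eBayes and a trend, Benjamini-Hochberg adjustment and a threshold of 0.05. Changes between biopsies used quantile normalization over 24 arrays with each cow as a fixed block and both classes in 1 fit. Gain classes were compared on the deposited values. The animal number in the titles gave the pairing; deviations of a cow's own 2 arrays correlated at -0.20 to 0.35 (median 0.16, against 0.03 for other cows), and the closest array was the animal's own in 3 of 12 cows. Permutation p-values are two-sided, from 100000 resamples within gain class; the number of arrays limits the precision.

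The genes, the pathway and marker lists and the tests were chosen with earlier results of these data known. Named were all 9 genes, up to 6 of each pathway list with the smallest p among those that passed, the 10 genes most like the 8 and the 10 with the smallest p beside MX1. Pathway and marker genes named without passing the test, and markers named singly, were picked with their values in view. Each fitting function was tested on simulated data. Alternatives covered normalization, the filter, the features of a gene, array weights, moderation of variances, the block and omission of cows. No genome, promoter or probe sequence was used here, so no sequence or coordinate is given and the planned motif count was not made.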

Additional observations from a re-analysis of the deposited data

Results flagged for a closer look

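Each of the 8 measured genes was checked for a lone sample in each of the 4 groups of 6 arrays, which made 32 checks, and 2 samples stood apart from the rest of their group by Dixon's criterion. Chance alone marks about 1 in 20 groups. IFI6 at biopsy 2 in high gain cows was 12.3 in high gain cow 4, where the next value was 10.13, a gap of 0.659 of the range. That array is the one rich in ADIPOQ. IFIH1 at biopsy 1 in low gain cows was 8.706 in low gain cow 4, where the next value was 7.953, a gap of 0.678 of the range. That array is the one low in muscle markers, and the part of the tissue's make-up in either value was not tested.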

How the results depend on the processing

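Over 21 alternative settings, MX1, RSAD2 and IRF9 were called between biopsies in all 21, with changes of -1.13 to -0.88, -0.76 to -0.55 and 0.33 to 0.45. MX2 was called in 20, IRF7 in 15 and IFI6 in 4, and ISG15 kept its sign in 15. The values as deposited moved the median change of all tested genes from 0.02 to 0.12 and the share of calls that were up from 54.5% to 70.8%; relative to that shift the directions above did not change. Without the replicate block, so that the pairing of biopsies was ignored, 5471 genes and 5 interferon-stimulated genes were called, against 5414 and 5; IRF7 then passed in high gain cows (adjusted p = 0.03) and IRF9 no longer did in low gain cows (0.08), while no other call of the 8 genes changed. The counts within classes were 4425 (high) and 4537 (low) with no filter on dim genes, and 4626 in high gain cows with array weights, where 5 interferon-stimulated genes were called. The F-test over cows called 4 genes on deposited or median-centred values, 6 with no filter, 0 with the mean of features, 1 without a trend and 9 without low gain cow 4 and high gain cow 4, and never 1 of the 8. Leaving out each cow in turn gave 4610 to 5891 genes and 4 to 6 of the 8 over 12 cows, 1748 to 3981 and 1 to 4 in high gain cows (fewest without high gain cow 1), 1955 to 2930 and 1 to 3 in low gain cows (fewest genes without low gain cow 1, fewest of the 8 without low gain cow 2), and 0 to 5 genes in the F-test (0 without high gain cow 1, 5 without low gain cow 4). The median correlation between pairs was then 0.033 to 0.21 at biopsy 1 and 0.031 to 0.15 at biopsy 2, and that between biopsies -0.097 to 0.14. The cause of these differences was not tested.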

Other observations

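BOLA, the class I histocompatibility gene that differed among cows at both biopsies, correlated with itself between biopsies at r = 0.90 over 12 cows. GSTM3 did so at 0.89, whereas BOLA-NC1, another class I histocompatibility gene of the antigen presentation list, gave 0.24. These were chosen after their values were seen.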
